A study of Mus musculus with 20 samples.

Results

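Open chromatin that was listed at every one of 6 times sampled between day 0 and day 6 of adipocyte differentiation made up 4098 regions, 8.76% of the 46760 open regions listed at any time and 14.9% of their base pairs. The cells were 3T3-L1, a mouse preadipocyte line that turns into fat-storing adipocytes when treated with hormones. Overlapping peaks of the 6 lists of DNase I hypersensitive sites (DHS, short stretches of DNA that the enzyme cuts easily because no nucleosome covers them) were merged when they shared at least 1 bp, and a merged region was kept when each of the 6 lists placed a peak in it. The kept regions were then split by a peak of RNA polymerase II (RNA Pol II) on day 0. This gave 2698 regions with RNA Pol II on day 0, called marked below, and 1400 without it, called unmarked. The regions were thus chosen by presence in the DHS lists and split by RNA Pol II on day 0, and both are given as a description only.

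All cells were 3T3-L1, and their medium changed along with the time of collection. On day 0, which fell 2 days after the cells became confluent, they were untreated preadipocytes. Cells of 2 hours, 4 hours, day 1 and day 2 had received dexamethasone, which is a synthetic glucocorticoid, together with 3-isobutyl-1-methylxanthine, insulin and fetal bovine serum. Medium was exchanged on day 2 for one with serum and insulin, later with serum alone, and cells of day 6 were labelled mature adipocytes. DHS-seq was done at day 0, 2 hours, 4 hours, day 1, day 2 and day 6. Chromatin immunoprecipitation (ChIP-seq) gave 13 further lists: C/EBPbeta at day 0, 2 hours, 4 hours and day 2, C/EBPdelta at day 0 and 4 hours, GR, Stat5a and RXR at 4 hours, PPARgamma at day 2 and day 6, and RNA Pol II at day 0 and 4 hours. Each of these 19 groups held 1 library, so no difference between times could be set against replicate spread and no p-value is given. The lists, of 2076 to 35389 peaks, give positions on mouse genome build mm9 without a score or read count, and the sequencing depth is unknown. The identity of the cells could not be checked against marker genes, because the lists name no gene and no gene annotation of that build was used here.

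RNA Pol II transcribes protein-coding genes and gathers where their transcription starts, while open regions away from it are often enhancers. C/EBPbeta and C/EBPdelta are closely related leucine zipper proteins that act early in fat cell formation. GR is the glucocorticoid receptor that dexamethasone activates, and Stat5a is a signal transducer that growth hormone and cytokines activate. RXR is the nuclear receptor that pairs with PPARgamma, and PPARgamma is the central regulator of the adipocyte.

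The constantly open regions were wide. Their width had a median of 999.5 bp and ran from 394 to 6131 bp, against a median of 830 bp in the 3935 regions listed at exactly 5 times and 550 bp in the 38727 regions listed at 1 to 4 times. Since more lists were merged into them, part of that width follows from the merging. Marked regions were wider than unmarked ones, with a median of 1056.5 bp against 904 bp. In 85.3% of the regions each list placed a single peak, so most were 1 site and not a chain of neighbours. The bases open in all 6 lists at once, here called the common core, had a median length of 528 bp in marked regions and 451 bp in unmarked ones. In 38 regions, 21 marked and 17 unmarked, the 6 lists touched each other in a chain and shared no base.

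The stretch called open within them changed in length with time in both classes. In marked regions its median was 683 bp on day 0, 601 bp at 2 hours, 950 bp at 4 hours, 806 bp on day 1, 932 bp on day 2 and 645 bp on day 6. Unmarked regions had medians of 627, 623.5, 821, 748, 784 and 512 bp at the same times. In both classes the open stretch was longest at 4 hours and shortest at 2 hours or day 6. The classes were closest at 2 hours, where the unmarked median was the higher of the pair, and they lay furthest apart on day 2. Because each time had 1 library of unknown depth, a longer peak and a more deeply sequenced library cannot be told apart.

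**Figure D1:**
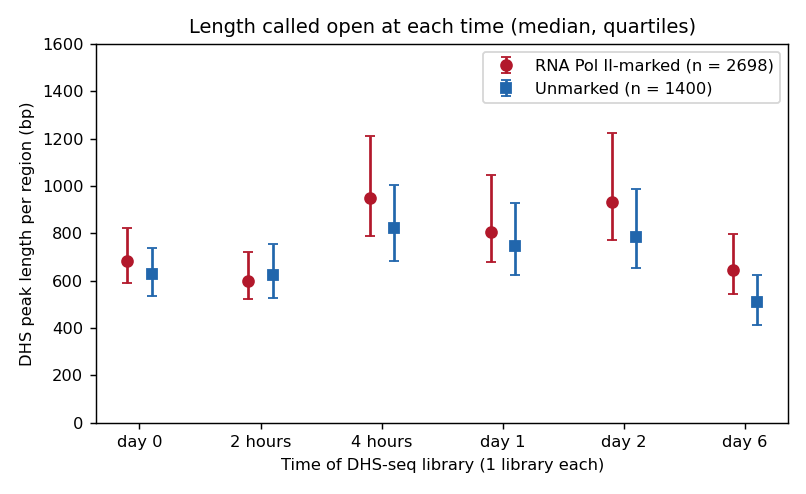
Length of DHS peaks (bp) within each region open at all 6 times, by time of collection, with 1 library per time. Points are medians and lines run from the first to the last quartile; marked regions (red, left) lie above unmarked ones (blue, right) except at 2 hours, where the medians are 601 and 623.5 bp.

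RNA Pol II on day 0 was more frequent the more often a region was listed as open. It marked 5.17% of the regions in 1 DHS list, 8.71% in 2, 17.4% in 3, 32.3% in 4, 53.2% in 5 and, by the description that splits them, 65.8% of those in all 6, beside 19.8% of all open regions. Median width rose as well, from 446 bp in 1 list to 999.5 bp in 6, and the part of width in these shares was not tested. Regions in exactly 5 lists lie just outside the rule, and they were of unlike kinds. Of these, 2592 lacked only the 2 hours list, the shortest of the 6 with 9055 peaks, and 71.8% of them had RNA Pol II on day 0. The next largest sets lacked only day 6, with 724 regions of which 14.9% had RNA Pol II, or only day 0, with 525 regions of which 21.7% had it. The rest lacked only day 2 (82 regions), 4 hours (6) or day 1 (6).

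At 4 hours, RNA Pol II was again found at 84.5% of marked regions (2281 of 2698) and at 12.9% of unmarked ones (181 of 1400), beside 18.1% of all open regions. Both values come from the factor that made the split and are a description. Among regions open at 1 to 4 times, 66.6% of those with RNA Pol II on day 0 had it at 4 hours, a difference from the constantly open ones of 18.0 percentage points (95% interval 16.0 to 19.9), next to 75.1% kept over all open regions. The nearest regions kept it almost as often, at 81.0% in exactly 5 lists (difference 3.55 points, 1.40 to 5.73) and at 82.9% of those lacking only the 2 hours list (1.62 points, -0.543 to 3.83). Where day 0 had none, RNA Pol II was found at 4 hours in 12.9% of constantly open regions against 3.33% of regions open at 1 to 4 times, a difference of 9.59 points (7.93 to 11.5), next to 4.07% over all open regions. Regions in exactly 5 lists had it in 203 of 1841 (difference 1.90 points, -0.341 to 4.20), and those lacking only the 2 hours list had more, at 20.3% (difference -7.35 points, -10.8 to -4.02). Intervals of this kind, here and below, are Newcombe intervals for a difference and Clopper-Pearson intervals for a share, and they cover counting over regions in these libraries only.

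Each of the 11 factor lists had a smaller share of marked than of unmarked regions, and none of the intervals of these 11 differences reached 0. C/EBPbeta showed the largest of these differences. On day 0, before induction, C/EBPbeta was at 25.9% of marked regions (24.3 to 27.6) and 55.6% of unmarked regions (52.9 to 58.2), and it was at 26.3% of all open regions. The difference was -29.6 points (-32.7 to -26.5). Marked regions were thus near the level of all open regions, and unmarked regions were far above it. For C/EBPbeta and GR the split ran the same way outside constantly open regions. In exactly 5 lists C/EBPbeta on day 0 was at 17.4% of marked and 53.6% of unmarked regions (-36.2 points). GR was at 1.34% and 20.9% of these. Such regions were of unlike kinds, and within each kind the C/EBPbeta difference was smaller. Where only the 2 hours list was lacking, C/EBPbeta on day 0 was at 12.8% and 25.1% (-12.2 points, -15.8 to -8.83). Where another single list was lacking, it was at 53.9% and 72.3% (-18.4 points, -25.3 to -11.5). Among regions open at 1 to 4 times C/EBPbeta on day 0 was at 14.5% and 25.8%. C/EBPdelta on day 0 was the exception there, at 3.56% of marked and 2.95% of unmarked regions. Its difference also spanned 0 in regions lacking only the 2 hours list (0.104 points, -1.81 to 1.71). The same held in those lacking another single list (2.38 points, -3.00 to 8.52). For Stat5a the interval spanned 0 in regions lacking only the 2 hours list (-0.814 points, -2.11 to 0.109).

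Among constantly open regions, C/EBPbeta kept the order of marked below unmarked through induction. At 2 hours C/EBPbeta was at 21.5% of marked and 48.2% of unmarked regions, where all open regions had 26.9%. At 4 hours the shares were 27.9% and 56.7%, where all open regions had 37.4%. On day 2 they were 16.3% and 41.6%, where all open regions had 25.5%. In both classes 4 hours had the highest share and day 2 the lowest.

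C/EBPdelta differed less on day 0, when it was at 11.8% of marked and 19.9% of unmarked regions (difference -8.03 points, -10.5 to -5.66), both well above the 4.58% of all open regions. By 4 hours it was at 19.1% of marked and 40.4% of unmarked regions (difference -21.3 points, -24.2 to -18.3), and all open regions stood at 24.5%. The day 0 list of C/EBPdelta was short, with 2581 peaks, and 23.8% of those peaks (22.2 to 25.5) fell in constantly open regions. The longer C/EBPbeta list of day 0, with 20471 peaks, placed 7.62% there (7.26 to 7.99).

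The receptors and Stat5a, all measured at 4 hours, were rare at marked regions. GR was at 2.63% of marked regions (71 of 2698) and 19.4% of unmarked ones (272 of 1400), a difference of -16.8 points (-19.0 to -14.7), and at 7.66% of all open regions. Stat5a was at 4.08% and 18.7% (difference -14.6 points, -16.9 to -12.5), and at 9.09% of all open regions. RXR was at 1.89% and 11.7% (difference -9.82 points, -11.7 to -8.14), and at 3.88% of all open regions. For each of the 3 proteins, marked regions lay below the share in all open regions and unmarked regions above it. Among marked regions alone the order was mixed. The 4444 marked regions open at 1 to 4 times had less, with GR at 1.28%, Stat5a at 2.09% and RXR at 0.698%. The 232 marked regions that lacked a single DHS list other than 2 hours had more, at 10.3%, 14.2% and 3.88%.

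PPARgamma, which comes up as the cells turn into adipocytes, was at 3.74% of marked and 10.7% of unmarked regions on day 2 (difference -6.97 points, -8.82 to -5.27), beside 5.32% of all open regions. On day 6 it was at 7.89% of marked and 16.4% of unmarked regions (difference -8.53 points, -10.8 to -6.39), beside 7.73% of all open regions. Marked regions on day 6 were therefore level with open regions at large. They were above the 3.33% of marked regions open at 1 to 4 times. They were below the 11.6% of marked regions that lacked a single DHS list other than 2 hours.

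**Figure D2:**
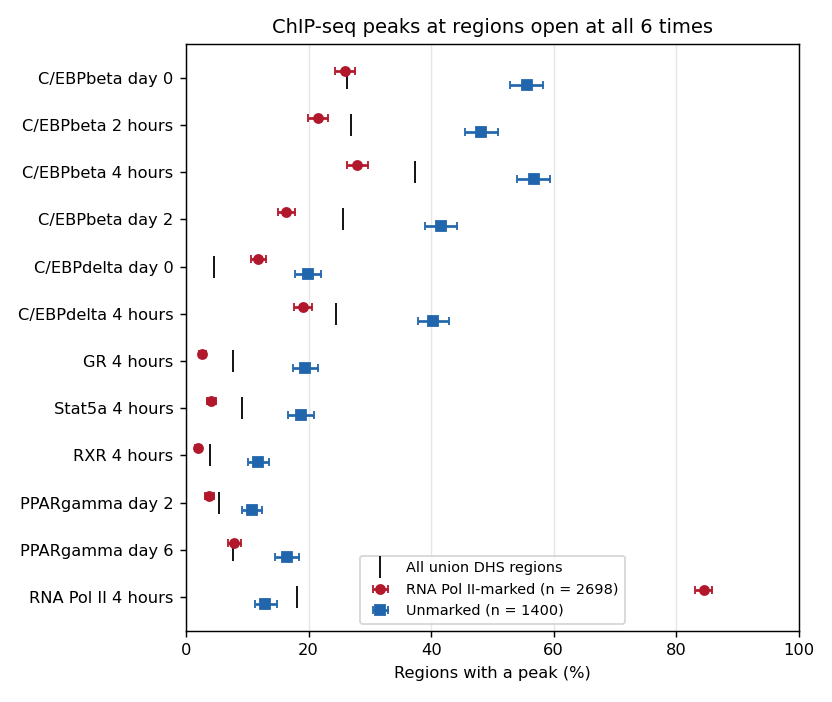
Share (%) of marked (red circles, n = 2698) and unmarked regions (blue squares, n = 1400) with a peak of each ChIP-seq list, with 95% Clopper-Pearson intervals; black ticks are all union DHS regions. Marked regions lie left of unmarked ones in each factor list and to the right, at 84.5% against 12.9%, for RNA Pol II at 4 hours.

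Width moved with these shares, and marked regions were wider although they held fewer factors. Within the narrowest of 5 width classes of constantly open regions (394 to 790 bp), C/EBPbeta at 4 hours was at 14.7% of marked and 44.6% of unmarked regions. Within the widest class (1368 to 6131 bp) it was at 43.8% and 63.3%. GR was at 1.02% of marked regions (4 of 394) and at 51 of 424 unmarked regions in the narrowest class, and at 5.36% and 30.8% in the widest. The share of marked regions stayed below that of unmarked regions in all 5 width classes for both proteins and for PPARgamma on day 6, whose shares were 2.28% and 8.96% in the narrowest and 15.8% and 32.5% in the widest.

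Many constantly open regions carried RNA Pol II and nothing else. No peak of the 11 factor lists touched 58.4% of marked regions (1575 of 2698) and 34.1% of unmarked regions (477 of 1400), a difference of 24.3 points (21.2 to 27.4), and 50.4% of all open regions had none. Both RNA Pol II lists and no factor were found at 1343 regions, 49.8% of the marked class. This was no larger a share than in all open regions with RNA Pol II on day 0, where 4891 of 9236 had this state. A further 232 marked regions (8.60%) had RNA Pol II on day 0 as their sole ChIP-seq peak, beside 1551 of the same 9236. Among unmarked regions, 365 (26.1%) had no peak of any of the 13 ChIP-seq lists and yet were listed as open at all 6 times. Among regions without RNA Pol II on day 0, none of the 13 lists had a peak at 531 of 1841 in exactly 5 lists. The count was 15309 of 34283 for those open at 1 to 4 times and 16205 of 37524 over all open regions. The widest marked regions without another list were chr7:6679879-6682648 (2770 bp), chr14:51682694-51685301 (2608 bp) and chr4:125937815-125939877 (2063 bp).

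Factors gathered together more often at unmarked than at marked regions. The 5 factors measured at 4 hours were GR, RXR, Stat5a, C/EBPdelta and C/EBPbeta, and 3 or more of them were present at 3.78% of marked and 23.6% of unmarked regions, a difference of -19.9 points (-22.3 to -17.6), beside 10.1% of all open regions. All 5 were present at 21 marked regions (0.778%) and 92 unmarked regions (6.57%), a difference of -5.79 points (-7.24 to -4.54), beside 1.92% of all open regions. None of the 5 was present at 1830 marked regions (67.8%) and 574 unmarked regions (41.0%), beside 59.4% of all open regions. Such gathering was not particular to constantly open regions. With both classes together, 10.6% of them had 3 or more factors and 2.76% had all 5. The 1343 regions that lacked a single list other than 2 hours had more, at 36.5% and 9.75%. Those lacking only the 2 hours list had less, at 1.00% and 0.116%. In marked regions the most frequent occupied states were C/EBPbeta with C/EBPdelta (337 regions) and C/EBPbeta alone (299). In unmarked regions the same states led, with 239 and 191 regions, followed by all 5 factors together with 92.

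Most regions with GR, RXR or Stat5a also held C/EBPbeta. Among regions with GR, C/EBPbeta was present at 4 hours in 93.0% of 71 marked and 97.4% of 272 unmarked regions. It had already been there on day 0, before dexamethasone was given, in 84.5% of the marked and 93.0% of the unmarked ones. In GR regions open at 1 to 4 times C/EBPbeta was nearly as frequent at 4 hours, at 94.1% of 2826, but on day 0 it was at 56.4%. GR regions in exactly 5 lists had it on day 0 at 86.7% of 412. Regions open at 1 to 4 times need not be open on day 0, unlike constantly open ones, and the part of this was not tested. For RXR, C/EBPbeta at 4 hours was present in 80.4% of 51 marked and 97.6% of 164 unmarked regions, and in 96.2% of 1374 regions open at 1 to 4 times. For Stat5a it was present in 75.5% of 110 marked and 93.1% of 262 unmarked regions, and in 83.2% of 3480 regions open at 1 to 4 times. C/EBPbeta was thus missing from a larger share of the RXR and Stat5a regions in the marked class.

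**Figure D3:**
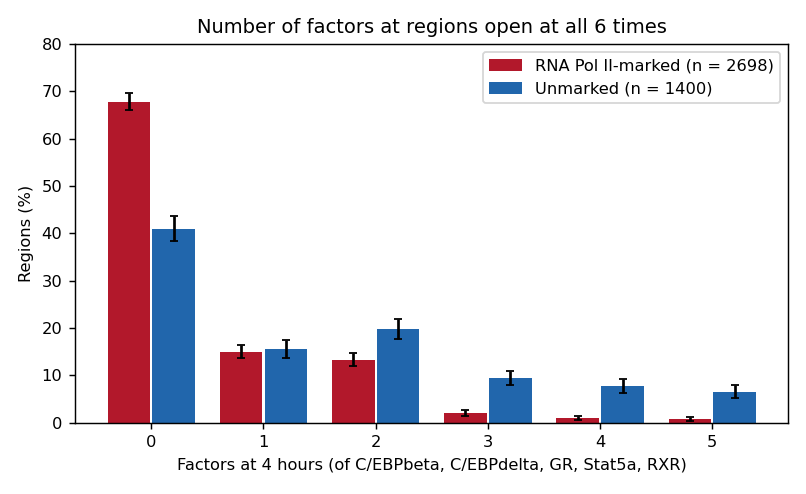
Share (%) of marked (red, left, n = 2698) and unmarked regions (blue, right, n = 1400) with 0 to 5 of the factors GR, RXR, Stat5a, C/EBPdelta and C/EBPbeta at 4 hours, with 95% Clopper-Pearson intervals. No factor was present at 67.8% of marked and 41.0% of unmarked regions, and all 5 at 0.778% and 6.57%.

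Where C/EBPbeta was present, it was often listed throughout. Among constantly open regions with C/EBPbeta at any of its 4 times, it was listed at all 4 in 43.3% of 876 marked and 62.1% of 865 unmarked regions, a difference of -18.8 points (-23.4 to -14.2). Over both classes the share was 52.6% of 1741 regions, against 30.9% of 17437 regions open at 1 to 4 times, a difference of 21.7 points (19.3 to 24.1). It was 53.2% of 1602 regions in exactly 5 lists, a difference of -0.633 points whose interval (-4.01 to 2.75) spans 0. Regions open at 1 to 4 times need not be open when C/EBPbeta was measured, and the part of this was not tested. Counted over all regions, C/EBPbeta was listed at all 4 times in 14.0% of marked and 38.4% of unmarked regions and in 15.3% of all open regions. The next pattern was presence at day 0, 2 hours and 4 hours without day 2. It was found in 122 marked (4.52%) and 94 unmarked regions (6.71%), beside 4.27% of all open regions.

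Sites bound by C/EBPbeta at 4 hours had usually been bound before induction. Constantly open regions were open on day 0 by the rule, while regions open at 1 to 4 times need not be. The part of this in the differences that follow was not tested. The day 0 list held 84.9% of 1548 constantly open regions with C/EBPbeta at 4 hours, against 55.2% of 14504 such regions open at 1 to 4 times (difference 29.7 points, 27.7 to 31.6). Regions in exactly 5 lists had 83.9% of 1413 (difference 0.949 points, -1.66 to 3.58). The marked share was 79.3% and the unmarked share 90.2%. For C/EBPdelta, 42.6% of 1080 constantly open regions with C/EBPdelta at 4 hours already had it on day 0, against 10.9% of 9363 regions open at 1 to 4 times (difference 31.7 points, 28.7 to 34.7) and 31.4% of 1011 regions in exactly 5 lists (difference 11.2 points, 7.11 to 15.3). On day 0 itself, C/EBPdelta lay together with C/EBPbeta in 191 of 319 marked and 264 of 278 unmarked regions, in 85.9% of 375 regions in exactly 5 lists and in 88.9% of 1170 regions open at 1 to 4 times. The marked regions with C/EBPdelta on day 0 thus included 128 without C/EBPbeta at that time, against 14 unmarked ones.

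PPARgamma was listed on both of its days at 78 marked regions (2.89%) and 119 unmarked regions (8.50%), a difference of -5.61 points (-7.29 to -4.09), beside 3.82% of all open regions. Of the regions with PPARgamma on day 2, 77.2% of 101 marked and 79.3% of 150 unmarked ones kept it to day 6, a difference of -2.11 points whose interval (-12.8 to 7.98) spans 0. Of all open regions with PPARgamma on day 2, 1784 of 2486 kept it to day 6. PPARgamma was listed on day 6 and not day 2 at 135 of 2698 marked and 111 of 1400 unmarked regions. Over all open regions this was 1829 of 46760. The marked class thus had the higher count but the lower share.

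The share of regions with PPARgamma on day 6 went up with the number of factors present at 4 hours. In marked regions it was 4.75% with no factor, 8.87% with 1, 16.1% with 2, 22.2% with 3, 29.6% with 4 and 57.1% with 5, where the last share rests on 12 of 21 regions (34.0 to 78.2). In unmarked regions it was 6.27%, 12.4%, 20.2%, 25.2%, 33.3% and 45.7%, the last from 42 of 92 regions (35.2 to 56.4). At each number of factors the intervals of the classes overlapped. Regions open at 1 to 4 times had 6.17% with no factor, close to the constantly open ones, but 16.0% with all 5 (13.3 to 19.0). Regions in exactly 5 lists had 3.21% with no factor and 55 of 134 with all 5, where 54 of 113 constantly open regions had it (difference 6.74 points, -5.60 to 18.9). Median width was also greater with 5 factors than with none, being 987 bp with none and 1451 bp with 5 in marked regions, 836.5 and 1124 bp in unmarked regions, and 512 and 782 bp in regions open at 1 to 4 times. Constantly open regions were also open on day 6 by the rule, while regions open at 1 to 4 times need not be. The part of width and of openness on day 6 in these shares was not tested.

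**Figure D4:**
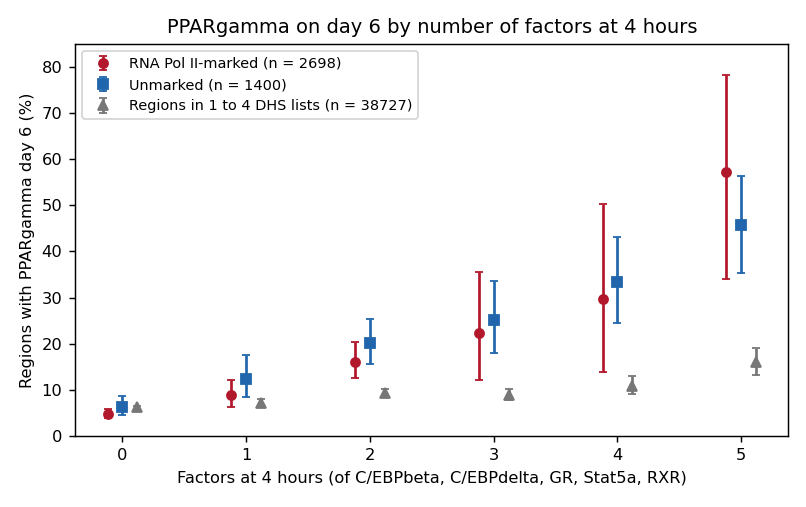
Share (%) of regions with PPARgamma on day 6 by the number of factors at 4 hours, with 95% Clopper-Pearson intervals, for marked regions (red circles), unmarked regions (blue squares) and regions open at 1 to 4 times (grey triangles). With all 5 factors the shares are 57.1%, 45.7% and 16.0%.

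C/EBPbeta at all 4 times and PPARgamma on both days met at 677 open regions, 1.45% of all. Of these, 127 were constantly open (36 marked and 91 unmarked), which is 3.10% of the constantly open regions. The widest were chr10:116722900-116728599 (unmarked), chr11:86391739-86396374 and chr10:117145093-117149520 (both marked). RXR and PPARgamma, which bind DNA as a pair, shared 44.2% of the 215 constantly open regions with RXR at 4 hours when PPARgamma was read on day 6. In regions open at 1 to 4 times that share was 16.8% of 1374, and in exactly 5 lists it was 40.1% of 227. Regions open at 1 to 4 times need not be open on day 6, and the part of this was not tested.

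The peak summits are not given in the lists, so the place of a factor was read from the middle of its peak. In marked regions factor peaks were centred further from the middle of the common core than in unmarked regions. The middle of the C/EBPbeta peak at 4 hours lay within 100 bp of the core's middle in 34.5% of 745 marked and 56.8% of 783 unmarked regions, with median distances of 152.5 and 81.5 bp. For GR these shares were 33.3% of 69 marked and 58.4% of 269 unmarked regions, with median distances of 165 and 80 bp. For PPARgamma on day 6 the counts were 53 of 207 marked and 114 of 228 unmarked regions, with medians of 263.5 and 99.75 bp. Over the 11 factor lists the difference in the share within 100 bp lay between -14.9 points for RXR and -25.0 points for GR, and RXR was the single list whose interval (-29.8 to 1.06) spanned 0.

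Part of this moved with width. Among regions narrower than 999.5 bp, a comparison added after the data were examined, C/EBPbeta at 4 hours was within 100 bp in 58.0% of 200 marked and 67.9% of 443 unmarked regions, a difference of -9.95 points (-18.0 to -1.94). For PPARgamma on day 6 the narrow regions still differed by -39.9 points (-53.6 to -21.3), from 8 of 36 marked and 64 of 103 unmarked regions. Stat5a and RXR turned direction in narrow regions, with intervals that spanned 0: Stat5a was within 100 bp in 17 of 22 marked and 78 of 125 unmarked regions (14.9 points, -7.33 to 30.2), and RXR in 6 of 6 and 50 of 68 (26.5 points, -13.6 to 38.0). The intervals for C/EBPdelta at 4 hours and PPARgamma on day 2 spanned 0 as well. RNA Pol II at 4 hours was off centre in both classes, within 100 bp in 24.9% of 2261 marked and 8.29% of 181 unmarked regions.

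**Figure D5:**
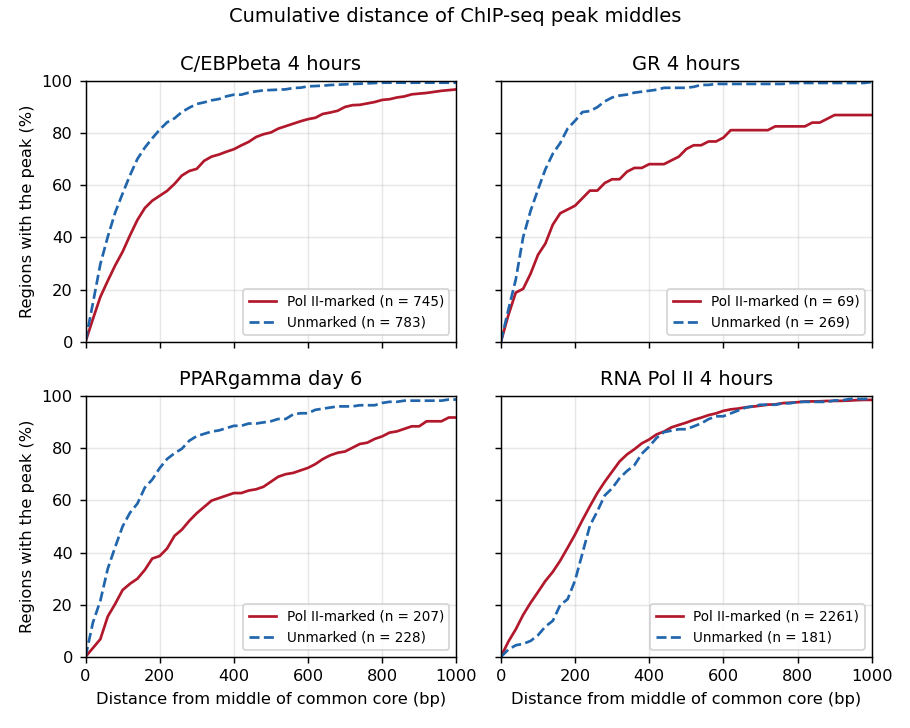
Cumulative share (%) of regions against the distance (bp) from the middle of the common core to the middle of the nearest ChIP-seq peak, for 4 lists, in marked (red, solid) and unmarked regions (blue, dashed). The factor curves rise later in marked regions, with medians of 152.5 bp against 81.5 bp in unmarked regions for C/EBPbeta, and the RNA Pol II curve rises earlier in marked regions.

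Unmarked regions were mostly far from RNA Pol II. The gap to the nearest day 0 peak of RNA Pol II had a median of 40274 bp, was under 1 kb for 64 regions and over 50 kb for 605. GR and C/EBPbeta were more frequent in the more distant regions. GR was at 7.81% of the 64 regions under 1 kb, 21 of 210 regions from 1 to 10 kb, 15.0% of 521 from 10 to 50 kb and 27.8% of 605 beyond 50 kb. C/EBPbeta at 4 hours was at 26.6%, 41.9%, 53.9% and 67.4% in the same order. PPARgamma on day 6 did not follow this order, with 7 of 64, 42 of 210, 74 of 521 and 107 of 605 regions, and the intervals of these shares overlapped. On day 2 it was at 2 of 64, 27 of 210, 47 of 521 and 74 of 605 regions.

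The 3 unmarked regions most distant from RNA Pol II each held C/EBPbeta, C/EBPdelta and GR at 4 hours. The region chr15:50529119-50530550 lay 1166184 bp from the nearest RNA Pol II peak of either day 0 or 4 hours, the measure used for all 3. It was open over 1065 bp on day 0, 1197 bp at 2 hours, 1301 bp at 4 hours, 1419 bp on day 1, 1299 bp on day 2 and 675 bp on day 6, and C/EBPbeta was present at all 4 of its times. The region chr2:135387909-135388600, 815509 bp away, had the same 7 lists. The region chr8:106016805-106017937, 707552 bp away, lacked C/EBPbeta on day 2 and C/EBPdelta on day 0 but had Stat5a.

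RNA Pol II at 4 hours sorted both classes further for C/EBPbeta, GR, Stat5a and RXR, although it shares its target with the split. Unmarked regions with RNA Pol II at 4 hours had C/EBPbeta at 4 hours in 30.4% of 181, against 60.6% of the 1219 unmarked regions without it (difference -30.2 points, -37.0 to -22.7). Marked regions without RNA Pol II at 4 hours had GR in 6.47% of 417, against 1.93% of the 2281 that had it (difference 4.55 points, 2.45 to 7.37). C/EBPbeta at 4 hours followed the same order in marked regions, at 34.8% of those without RNA Pol II at 4 hours and 26.7% of those with it, as did GR in unmarked regions, where 20 of the 181 with RNA Pol II at 4 hours and 252 of the 1219 without it had GR. Stat5a was at 8.15% of marked regions without RNA Pol II at 4 hours and 3.33% with it (4.82 points, 2.42 to 7.92). RXR was at 4.08% and 1.49% of these (2.59 points, 0.961 to 4.98). In unmarked regions Stat5a was at 8.84% with it and 20.2% without it (-11.3 points, -15.4 to -5.86). RXR was at 6.63% and 12.5% there (-5.84 points, -9.26 to -0.923). C/EBPdelta and PPARgamma were less clear. In marked regions the intervals for C/EBPdelta (at 4 hours 2.38 points, -1.62 to 6.83) and PPARgamma (on day 6 1.72 points, -0.974 to 5.06) spanned 0 at each of their times. In unmarked regions the interval for PPARgamma on day 2 spanned 0. That for PPARgamma on day 6 did not (-6.18 points, -10.6 to -0.413). Nor did those for C/EBPdelta, at -16.5 points on day 0 and -22.9 points at 4 hours.

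Against the regions that lacked only the 2 hours list, a comparison chosen after the data were examined, constantly open regions had more of each factor. C/EBPbeta at 4 hours was at 37.8% of constantly open regions and 14.9% of the 2592 others (difference 22.8 points, 20.8 to 24.8). GR was at 8.37% and 0.502% (difference 7.87 points, 6.98 to 8.78). Stat5a was at 9.08% and 1.20%, RXR at 5.25% and 0.347%, C/EBPdelta on day 0 at 14.6% and 4.32%, and PPARgamma on day 6 at 10.8% and 5.17%. RNA Pol II at 4 hours was the exception, at 60.1% and 65.3%, a difference of -5.20 points (-7.55 to -2.82). The difference was present within each class: C/EBPbeta at 4 hours was at 27.9% against 13.1% of marked regions and at 56.7% against 19.7% of unmarked ones.

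Against the 1343 regions that lacked a single list other than 2 hours, the order was the opposite. C/EBPbeta at 4 hours was at 37.8% of constantly open regions and 76.4% of these (difference -38.6 points, -41.3 to -35.8), and GR at 8.37% and 29.7% (difference -21.3 points, -24.0 to -18.8). RNA Pol II at 4 hours was at 60.1% and 15.4%. Set against all 3935 regions in exactly 5 lists, which mix both kinds, most differences were small. RNA Pol II at 4 hours differed most, at 60.1% of constantly open regions and 48.3% of these (11.8 points, 9.65 to 14.0). C/EBPdelta on day 0 was at 14.6% of constantly open regions and 9.53% of these (difference 5.04 points, 3.62 to 6.46), PPARgamma on day 6 at 10.8% and 9.12% (1.69 points, 0.376 to 3.00) and GR at 8.37% and 10.5% (-2.10 points, -3.38 to -0.823). For C/EBPbeta at its 4 times, C/EBPdelta at 4 hours, Stat5a, RXR and PPARgamma on day 2 the interval of this difference spanned 0. The call for PPARgamma on day 6 was lost with peaks set to 200 bp and in other settings, given at the end.

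Regions with every ChIP-seq list were few. All 13 lists met at 3 constantly open regions of 4 in all: chr6:52108098-52111582, chr19:5844561-5847784 and chr6:138088431-138090763. At chr6:52108098-52111582 the open stretch was 787 bp on day 0, 855 bp at 2 hours, 3229 bp at 4 hours, 2899 bp on day 1, 2086 bp on day 2 and 1219 bp on day 6. At chr19:5844561-5847784 it was 1863, 2522, 3224, 2723, 2719 and 1614 bp at the same times. Both were longest at 4 hours. A further pair, chr10:117145093-117149520 without RXR and chr1:90172992-90176478 without RNA Pol II at 4 hours, had 12 lists. The 11 factor lists met at 8 marked (0.297%) and 22 unmarked regions (1.57%), beside 0.152% of all open regions.

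The widest unmarked region, chr17:39979706-39985836, stood apart. It held the widest peak of each DHS list, of 5962 to 6129 bp, so that nearly its whole length of 6131 bp was called open at every time, with C/EBPbeta at all 4 times, C/EBPdelta at both, PPARgamma on day 2 and none of GR, Stat5a, RXR or RNA Pol II. No annotation of repeats or copy number was used here, so whether repeated sequence adds to its peaks was not tested. The next widest unmarked regions were chr10:116722900-116728599 (5700 bp) and chr7:38972638-38977458 (4821 bp), both with C/EBPbeta and with PPARgamma on both days. The widest marked regions were chr3:123207602-123212409 (4808 bp), chr11:86391739-86396374 (4636 bp) and chr7:38967597-38972082 (4486 bp). At chr3:123207602-123212409 the open stretch was 825, 702, 1714, 1780, 4790 and 822 bp from day 0 to day 6, so its width came from day 2.

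Among unmarked regions with all 5 factors at 4 hours, the widest were chr2:77812371-77815105, chr5:74271765-74273855 and chr15:59311998-59313852. The first had 10 of the 11 factor lists, lacking PPARgamma on day 2, while the others had no PPARgamma on either day. Among regions lacking only the 2 hours list, the widest was chr17:71198158-71203014 (4857 bp), which was marked and had C/EBPbeta at day 0, 2 hours and 4 hours and no GR.

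Constantly open regions were scattered, with a median gap of 170052 bp between neighbours. Gaps under 10 kb numbered 272 and joined 486 regions into 214 runs. Across these short gaps, 196 of 272 pairs were of the same class. The longest runs were chr10:106650385-106694145 with 15 regions, of which 2 were marked, chr11:3031875-3066164 with 10, none of them marked, and chr7:38960642-38986488 with 8, of which 2 were marked. Repeated sequence was not tested in these runs either, and leaving out the 58 regions in runs of 4 or more changed no direction of the marked minus unmarked differences. Per chromosome, constantly open regions made up between 6.06% (chromosome 18) and 13.4% (chromosome 17) of all open regions. On chromosome X 66 of 79 were marked (83.5%, 73.5 to 90.9), and on the other chromosomes the marked share ran from 58.5% to 76.7%.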

How the data were processed

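The data were 19 deposited peak lists, each from a single sample, and the input control was not analysed here. A deposited list holds positions alone (chromosome, start, end) and no score. Per the submitters' processing notes, positions are on build mm9. The peak caller and threshold are not given in the sources used here, nor is read depth, so the number of peaks per list stands in its place.

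Peaks of the 6 DHS lists were merged at an overlap of 1 bp, and a ChIP-seq peak counted as present at a region from 1 bp of overlap. Shares carry Clopper-Pearson 95% intervals and differences in share Newcombe 95% intervals, for 12 lists per comparison and without adjustment for their number. No test against replicates was possible. Gaps, runs (gaps under 10 kb) and distances were computed from positions, printed counted from 1. On simulated data with planted overlaps the planted members and shares were returned.

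Named regions were chosen by rule: the 5 with the most ChIP-seq lists, the 3 widest of each class, the 3 unmarked ones farthest from RNA Pol II, the 3 widest marked ones without another list, the 3 widest unmarked ones with all 5 factors, the 3 widest with C/EBPbeta at 4 times and PPARgamma on both days, the 3 widest lacking only 2 hours, and the 3 longest runs. The members, lists and rules were chosen with earlier results of these data known. Alternatives were an overlap of 50% of the shorter interval, 200 bp windows or peaks, the wider 50% of each DHS list, equal list lengths, the 2 hours list left out, a split by either RNA Pol II list, 5 classes of width and, added after the data were examined, runs of 4 or more left out. Comparisons of binding over time with regions in exactly 5 lists were also added after the data were examined. No sequence or gene name is given, since no mm9 sequence or annotation was used. Tools were SciPy 1.17.1 and NumPy 2.4.6 under Python 3.11.15, with plots from Matplotlib 3.10.9.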

Additional observations from a re-analysis of the deposited data

How the results depend on the processing

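All 119 alternative values of the marked minus unmarked difference, and all 96 of the difference from regions lacking only the 2 hours list, held the sign and stayed on the same side of 0. The marked minus unmarked difference for C/EBPbeta at 4 hours lay between -32.8 and -22.1 points, and for GR between -20.5 and -11.5. No paired analysis was possible because each group held 1 library. The number of regions and the share with RNA Pol II on day 0 depended on how they were defined: 1700 regions with 74.9% in the wider 50% of each DHS list, 2550 with 75.4% with the lists shortened to 9055 peaks by width, 6689 with 68.2% without the 2 hours list, 59.6% in 200 bp around the middle and 62.2% with DHS peaks set to 200 bp.

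The difference from regions in exactly 5 lists was unstable, and 28 of its 108 alternative values changed their reading. Of these, 9 turned direction. Another 16 kept direction but their interval no longer spanned 0, and 3 kept direction but their interval came to span 0. Without the 2 hours list, set against exactly 4 of 5, it was -12.1, -13.2, -14.7 and -12.5 points for C/EBPbeta at day 0, 2 hours, 4 hours and day 2, -11.1 for C/EBPdelta at 4 hours, -4.99 for Stat5a, -3.02 for RXR, -4.47 for PPARgamma on day 2 and -5.74 on day 6. Within 5 classes of width it was -3.35 and -3.85 for C/EBPbeta at 2 hours and day 2, -3.51 for C/EBPdelta at 4 hours, -2.34 for Stat5a, -1.60 for RXR, -1.70 for PPARgamma on day 2 and -0.325 on day 6. At equal list length it was -3.91 for C/EBPbeta on day 2, -3.75 for C/EBPdelta at 4 hours, -3.59 for Stat5a, -2.89 for RXR and 0.775 for PPARgamma on day 6. In the wider 50% of each list it was 5.23, 3.09 and 6.03 for C/EBPbeta at day 0, 2 hours and 4 hours. In 200 bp around the middle it was -1.40 for Stat5a and 0.650 for PPARgamma on day 6, and with DHS peaks set to 200 bp 0.321 for PPARgamma on day 6. Without the 58 regions in runs of 4 or more it was 2.14 for C/EBPbeta at 4 hours. The cause was not tested. Read depth is unknown and limits how far an absent peak can be read as a closed or unbound region.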
